A study of Mus musculus with 6 samples.

Results

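The genes described here encode the subunits of the respiratory chain and ATP synthase, chosen by gene symbol alone: mt-Nd, mt-Co, mt-Cytb and mt-Atp for the mitochondrial genome, and Nduf (a, b, c, s or v with a number), Sdha to Sdhd, Uqcr, Cox4 to Cox8 and Atp5 for the nuclear genome. The rule found 115 of the 55487 annotated genes in the deposited tables, 102 of them nuclear and 13 mitochondrially encoded. They were measured by poly(A)-enriched RNA sequencing of whole liver from male mice on a high-fat diet (HFD), strain C57/Bl6J. All mice carried Alb cre +/-, a Cre recombinase driven by the albumin promoter, active in hepatocytes. The 3 controls had that transgene alone, and the 3 mutants were RXRa f/f Alb cre+/-, which the design text calls Rxra S65A mutants. The titles call the controls WT and the mutants Cre, no age is given, and nothing in the labels states that the libraries come from different animals, so that p-values measure only the spread between these libraries. In whole liver, fewer cells of a type and less RNA per cell cannot be told apart.

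The respiratory chain carries electrons from NADH (complex I) or succinate (complex II) through ubiquinone, complex III and cytochrome c to oxygen at complex IV. Complexes I, III and IV pump protons across the inner mitochondrial membrane, and ATP synthase (complex V) uses the gradient to make ATP. Complexes I, III, IV and V are built from products of both genomes and complex II from nuclear products alone. RXRα, the product of Rxra, is the dimer partner of several nuclear receptors that govern lipid metabolism in liver.

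Library totals lay between 35847386 and 43162557 estimated counts. Rxra had 501, 471 and 414 CPM (counts scaled to library size) in control replicates 1 to 3 and 700, 522 and 609 in mutant replicates 1 to 3, a log2 difference of 0.40 ± 0.13 (SE) that did not pass the test (adjusted p = 0.0724), and a gene-level value does not show which allele a transcript carries. CPM values here are scaled by TMM (trimmed mean of M-values), which sets the typical gene equal in both groups. A gene was called at an adjusted p under 0.05 by edgeR's quasi-likelihood test. By this rule 6.64% of the 14286 tested genes were higher and 6.82% lower in the mutants. The choice of scale matters for everything below. Major urinary protein genes took 2.33% of the control and 14.2% of the mutant estimated counts, and the median log2 difference of all tested genes was 0.00 with TMM, -0.40 with library totals alone and -0.48 by limma on log2(TPM + 1), where TPM are the length-scaled abundances as deposited. The part of those genes in the differences of the members was not tested.

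In the controls, the members made up 125067 ± 5457 TPM (SD, n = 3), of which the 13 mitochondrially encoded genes gave 99008 ± 4851 and the nuclear genes 26058 ± 817. Among mitochondrially encoded genes, mean TPM over the 6 libraries ran from 1307 for mt-Nd3 to 18176 for mt-Co1, the catalytic subunit of complex IV, which alone held 21.2% of their sum. Among nuclear genes that were tested, it ran from 1.69 for Cox6b2 to 1097 for Atp5b, the catalytic β subunit of ATP synthase, with a median of 198. The nuclear sums in the controls were 7617 ± 232 TPM for complex I, 925 ± 48.6 for complex II, 3582 ± 89.3 for complex III, 6184 ± 311 for complex IV and 7751 ± 182 for complex V. Complex II, with the fewest genes, had the lowest sum.

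Of the 115 members, 95 passed the filter on low counts, namely 82 nuclear genes and all 13 mitochondrially encoded ones. The 20 others comprised 10 genes at 0 in every library and 10 with no TPM above 2.49 in any. Of the 17 rows that are pseudogenes by name or annotation, 3 were tested. A filter of this kind keeps a gene that is expressed in 1 group alone, and 1 member not tested, Cox8b, had TPM values of 1.97, 2.36 and 2.49 in the controls and 0, 0.98 and 0.292 in the mutants.

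On the TMM scale 19 members were called higher in the mutants (20% of 95, against 6.64% of all tested genes) and 0 lower, whereas with library totals 0 of 95 were called higher and 8 lower, and by limma on log2(TPM + 1) 0 of 96 were higher and 76 lower. The shares over all genes were 2.05% higher, 31.6% lower and 33.6% either way with library totals, and 1.88% higher, 63.6% lower and 65.5% either way by limma. On both scales 0 members were higher at an unadjusted p under 0.05. Over all genes with TMM, 13.5% were called either way. On the TMM scale no member was lower at an unadjusted p under 0.05 by edgeR either, and DESeq2 called 27 higher and 0 lower. The increases were small, between 1.25-fold and 1.54-fold. Of the nuclear genes 18 of 82 were called (22%) and of the mitochondrially encoded genes 1 of 13, mt-Nd2. The count depended on every library: leaving out control replicate 1, 2 or 3 gave 1, 5 or 4 members higher, and leaving out mutant replicate 1, 2 or 3 gave 4, 6 or 10. Ndufs7 passed in 6 of these 6 fits, Ndufb11 and Uqcrh in 5, Atp5h in 3, and Atp5l and Ndufv2 in 2. The members Atp5g1, Atp5o, Ndufb10, Uqcrfs1 and mt-Nd2 passed in 1, and the other 8 (Atp5d, Ndufb7, Ndufb9, Ndufs8, Ndufv1, Sdhb, Sdhd and Uqcrc1) in 0.

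**Figure D1:**
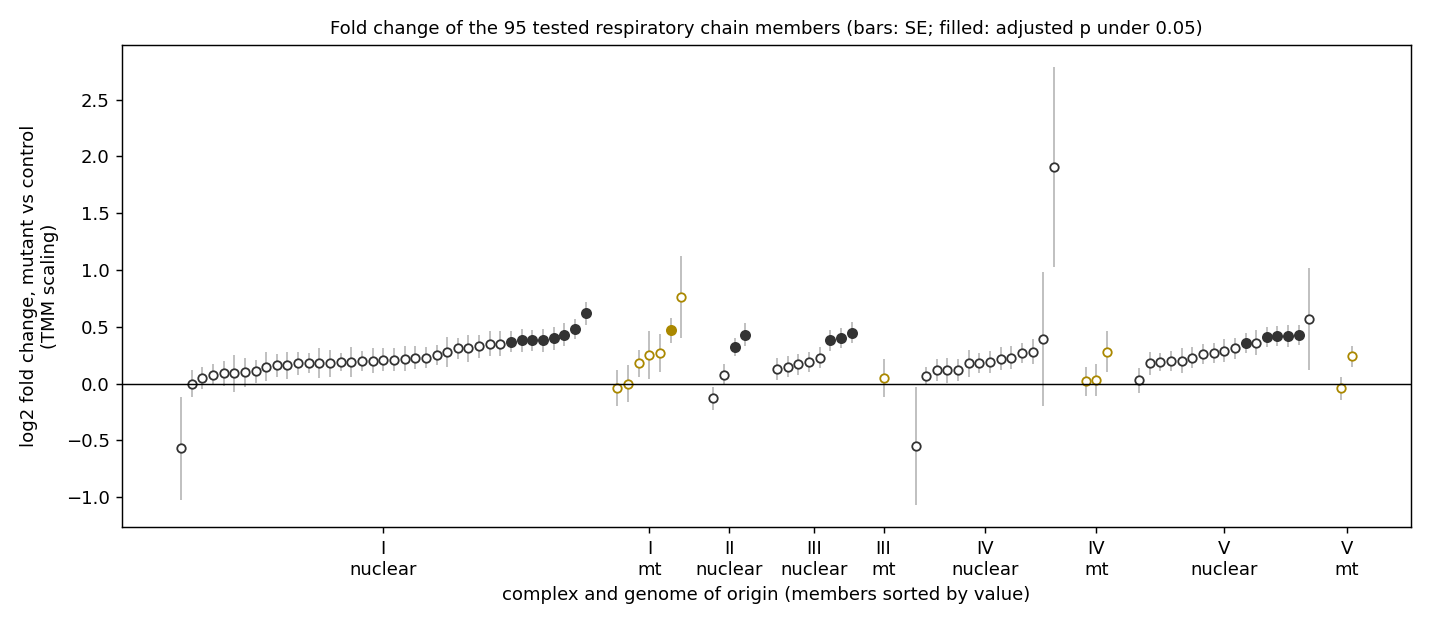
Log2 difference between mutant and control livers on the TMM scale for the 95 tested members (y axis), ordered within each complex and genome of origin (x axis, dark points nuclear, gold points mitochondrially encoded), with bars of 1 SE and filled points for the 19 members called. Nearly all points lie a little above 0 on this scale, whereas on the deposited TPM scale most members are lower in the mutants.

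The difference was spread over most nuclear members. On the TMM scale their median log2 difference was 0.22, and 78 of 82 (95.1%) were above 0, against a median of 0.00 and 50% above 0 over all tested genes. In 53 of the 82 (64.6%) all 3 mutant libraries were above all 3 control libraries, against 17.4% of all tested genes (17.5% for all mutants below), and 35 of these 53 did not pass the test. In the deposited TPM the order was the opposite, with all mutants below all controls in 77 of the 82 (93.9%), against 64.5% of all tested genes, and all mutants above all controls in 0, against 1.9%. The median of the nuclear members lay above the median of all genes by 0.22 with TMM, by 0.22 with library totals and by 0.11 by limma on log2(TPM + 1). By limma on log2(TPM + 1) without any filter on TPM, genes near 0 TPM pull the median of all genes up to -0.24. The median of the nuclear members then lay below it by 0.13. With TMM and no filter on low counts, the median of the nuclear members lay above that of all genes by 0.25. The place of the members relative to the typical gene thus depended on the scale and the filter together.

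The summed level of the nuclear members was 25221, 26854 and 26100 TPM in control replicates 1 to 3 and 20067, 20312 and 20074 TPM in mutant replicates 1 to 3. On the TMM scale the same sums were 8827, 9172 and 9113 CPM in the controls and 10237, 11121 and 10467 in the mutants. The groups did not overlap on either scale, and their order was reversed between them. As a share of all estimated counts, the nuclear members held 1.04% ± 0.0234 in control and 0.924% ± 0.0308 in mutant livers (SD, n = 3). A fall in share and a rise against the typical gene are thus both measured in the same libraries.

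**Figure D2:**
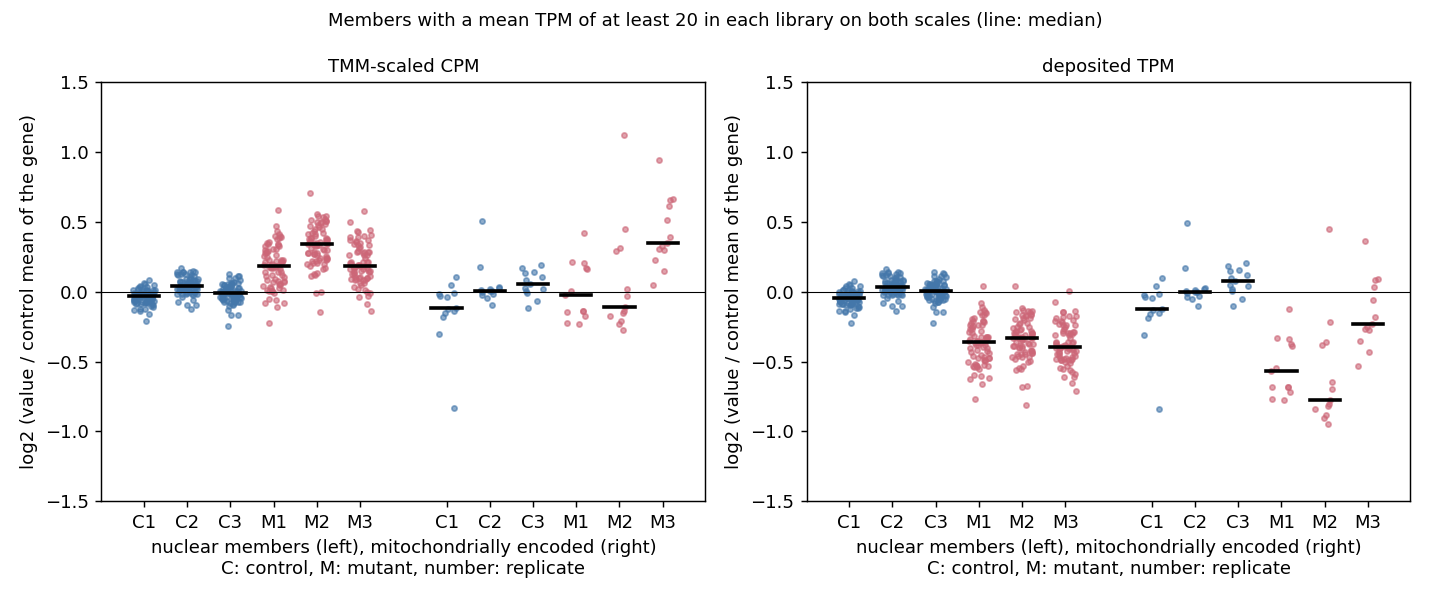
Each point is a member with a mean TPM of at least 20 (77 nuclear, 13 mitochondrially encoded) in 1 library, as the log2 ratio to the gene's control mean (y axis), on the TMM-scaled CPM scale (left) and on the deposited TPM scale (right), with a line at the median of each library. Over all 82 tested nuclear members, a set slightly larger than the 77 plotted, the medians of the 3 mutant libraries are 0.19, 0.34 and 0.18 on the CPM scale. On the TPM scale the nuclear medians of these libraries lie below 0.

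Among the nuclear members with a mean TPM of at least 20, the log2 difference on the TMM scale ranged from -0.13 to 0.62 over 77 genes, with SEs of 0.08 to 0.16. The 5 tested nuclear members under that level had SEs of 0.45 to 0.88. The medians by complex were close to each other: 0.21 for complex I, 0.20 for complex II, 0.21 for complex III, 0.19 for complex IV and 0.29 for complex V. Differences between complexes were not tested. Mutant replicate 2 was the highest of all 6 libraries for 62 of the 82 nuclear members, and without it their median was 0.16.

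Complex I, the NADH dehydrogenase, had 8 of 39 tested nuclear members called higher on the TMM scale (20.5%, against 6.64% of all tested genes). All 7 nuclear core subunits, which hold the flavin, the iron-sulfur clusters and the quinone site, had every mutant library above every control library in CPM. This held for 64.6% of the nuclear members and 17.4% of all tested genes. In TPM 5 of the 7 had every mutant library below every control, against 64.5% of all tested genes. On the TMM scale 4 of the 7 were called (Ndufs7, Ndufv2, Ndufv1 and Ndufs8), and with library totals or by limma on log2(TPM + 1) 0 were higher. Of the 31 tested rows named for accessory subunits, 4 were called (Ndufb11, Ndufb10, Ndufb9 and Ndufb7), all of the B group, which sits in the membrane arm. The 31 rows include Ndufb4c and Ndufb1-ps, pseudogenes by name or annotation, and Ndufa4, since found in complex IV. Whether core and accessory subunits differ was not tested. With library totals 3 of these 31 accessory rows (9.68%) were called lower, against 31.6% of all tested genes.

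Ndufs7, a core subunit beside the quinone site that carries the last iron-sulfur cluster (N2), had 50.6, 55.6 and 46.6 CPM in the controls and 76.4, 83.3 and 75.9 in the mutants. This was the largest difference among the 19 called members, at a log2 difference of 0.62 ± 0.10 (SE; adjusted p = 0.00763), while its TPM values of 155, 171 and 146 against 162, 162 and 158 overlapped. Ndufb11, an X-linked accessory subunit, had 77.4, 83.8 and 76.6 CPM in the controls and 104, 114 and 112 in the mutants (log2 difference 0.48 ± 0.09, adjusted p = 0.0136). Both genes had all mutant libraries above all controls in CPM. Ndufv2, a core subunit of the NADH-binding module, had 63.5, 70.9 and 63.2 CPM against 89, 95.8 and 82.3 (log2 difference 0.43 ± 0.10, adjusted p = 0.0274). Ndufb10 had 74.7, 73.2 and 73.8 CPM against 97.7, 101 and 89.7 (log2 difference 0.38 ± 0.09, adjusted p = 0.029). The other 4 called members of the complex had log2 differences of 0.37 (Ndufv1), 0.40 (Ndufb9), 0.38 (Ndufs8) and 0.38 (Ndufb7).

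The most abundant nuclear rows named for complex I were not among those called. Ndufa4, first assigned to complex I and since found in complex IV, had 815, 869 and 857 TPM in the controls and 661, 606 and 645 in the mutants, while its CPM values of 159, 170 and 165 against 187, 187 and 187 gave a log2 difference of 0.19 ± 0.08 (adjusted p = 0.17). Ndufa3 had 421, 458 and 351 TPM in the controls and 326, 317 and 279 in the mutants, with a log2 difference in CPM of 0.18 ± 0.13 (adjusted p = 0.409). Both were lower in every mutant library in TPM. In CPM the groups did not overlap for Ndufa4, and they overlapped for Ndufa3.

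Complex II, succinate dehydrogenase, had 2 of 4 members called higher on the TMM scale, against 6.64% of all tested genes. In TPM all 4 had every mutant library below every control, against 64.5% of all tested genes. Sdhb, the iron-sulfur subunit, had 106, 115 and 119 CPM in the controls and 142, 165 and 150 in the mutants (log2 difference 0.43 ± 0.10, adjusted p = 0.0263). Sdhd, a membrane anchor, had 140, 141 and 146 CPM against 180, 181 and 171 (log2 difference 0.32 ± 0.08, adjusted p = 0.0371). In both genes all mutant libraries lay above all controls in CPM. Sdha, the flavin subunit that oxidizes succinate, had 490, 467 and 539 CPM in the controls and 428, 452 and 489 in the mutants (log2 difference -0.13 ± 0.10, adjusted p = 0.423). Sdhc, the other membrane anchor, had 142, 156 and 155 CPM against 159, 170 and 151 (log2 difference 0.08 ± 0.09, adjusted p = 0.6). The groups overlapped for Sdha and Sdhc on the TMM scale, and with library totals both were called lower, at log2 differences of -0.53 and -0.31. On that scale 31.6% of all tested genes were called lower. Differences between the subunits were not tested.

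Complex III, the cytochrome bc1 complex, had 3 of 8 tested nuclear members called higher on the TMM scale (37.5%, against 6.64% of all tested genes). Uqcrh, the hinge subunit, had 78.4, 79.7 and 75.8 CPM in the controls and 103, 113 and 105 in the mutants (log2 difference 0.45 ± 0.09, adjusted p = 0.0138). Uqcrc1, a core protein, had 170, 185 and 188 CPM against 227, 255 and 233 (log2 difference 0.40 ± 0.09, adjusted p = 0.027). Uqcrfs1, the Rieske iron-sulfur protein, had 146, 151 and 152 CPM against 191, 212 and 180 (log2 difference 0.38 ± 0.09, adjusted p = 0.0327). In these 3 genes the groups did not overlap, and in TPM all 3 were lower in every mutant library, as were 64.5% of all tested genes. The second core protein Uqcrc2 had a log2 difference of 0.23 ± 0.09 (adjusted p = 0.142). The most abundant nuclear members of the complex, Uqcrq with 1104, 1148 and 1114 TPM in the controls and 848, 856 and 800 in the mutants, and Uqcr11 with 659, 727 and 705 TPM against 460, 511 and 534, were not called in CPM, with log2 differences of 0.17 and 0.13.

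Complex IV, cytochrome c oxidase, had 0 of 14 tested nuclear members called by edgeR on the TMM scale, against 6.64% of all tested genes called higher. It had 2 at an unadjusted p under 0.05 (Cox7b and Cox4i1) and 1 called by DESeq2 (Cox7b). Its lowest adjusted p was 0.0799. The 14 include the pseudogene Cox7c-ps1 and the other-tissue isoforms Cox6b2 and Cox7a1. These had mean TPM of 4.46, 1.69 and 6.78, with SEs of 0.59, 0.88 and 0.52. Cox7b had 79.4, 82.7 and 78.2 CPM in the controls and 91.5, 97.4 and 101 in the mutants (log2 difference 0.27 ± 0.09). Cox4i1, the largest nuclear subunit and the site of regulation by ATP, had 271, 308 and 273 CPM against 319, 387 and 330 (log2 difference 0.28 ± 0.11, adjusted p = 0.121). In both the mutants lay above the controls. Cox6b1, which joins the monomers of the enzyme, and Cox5a had log2 differences of 0.22 ± 0.10 and 0.23 ± 0.10 (adjusted p = 0.175 and 0.176). In TPM, Cox6a1 was the most abundant nuclear member of the complex, with 1112, 1315 and 1238 in the controls and 847, 888 and 896 in the mutants. Its CPM values of 227, 268 and 248 against 250, 286 and 270 overlapped. Cox7a2l, a factor that joins complexes III and IV in supercomplexes, had 81.2, 75.4 and 72.8 CPM in the controls and 89.4, 96.4 and 74.6 in the mutants (log2 difference 0.18 ± 0.12, adjusted p = 0.338).

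The isoforms of complex IV that are typical of heart, muscle, testis or lung were low in every library. Cox7a1, the heart and muscle form, had 9.15, 7.88 and 10.9 TPM in the controls and 6.7, 3.93 and 2.14 in the mutants, while its liver counterpart Cox7a2 had 277, 290 and 300 against 214, 209 and 225. The difference in Cox7a1 did not pass the test (log2 difference in CPM -0.55 ± 0.52, adjusted p = 0.537), and in TPM the groups did not overlap. Cox6b2, the testis form, ranged from 0.309 to 4.8 TPM over the 6 libraries beside 363 to 509 for Cox6b1. Cox8b, the muscle form, reached at most 2.49 TPM beside 555 to 872 for Cox8a. Cox4i2, the lung form, was at or below 0.716 TPM and Cox6a2 at or below 0.228, and Cox7b2 and Cox8c were at 0 in every library. Ndufa4l2, a hypoxia-induced relative of Ndufa4, had 0.963 to 4.48 TPM. Of 6 skeletal muscle markers 4 were at 0 in every library, and their summed level was 0.568 to 2.9 TPM in the controls and 0.849 to 1.27 in the mutants.

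Complex V, ATP synthase, had 5 of 17 tested nuclear members called higher on the TMM scale (29.4%, against 6.64% of all tested genes). Atp5h and Atp5o belong to the peripheral stalk that holds the F1 head in place. Atp5h had 84.9, 88.2 and 92.1 CPM in the controls and 113, 123 and 120 in the mutants (log2 difference 0.43 ± 0.09, adjusted p = 0.0177). Atp5o had 85.2, 92.4 and 84.9 CPM against 111, 125 and 113 (log2 difference 0.41 ± 0.09, adjusted p = 0.0257). In both the groups did not overlap. Atp5g1, 1 of 3 genes for the proton-carrying c subunit, had 90.5, 99.9 and 97.3 CPM against 125, 134 and 126 (log2 difference 0.42 ± 0.09, adjusted p = 0.0196). Atp5l, the g subunit of the membrane part, had 62.9, 72.4 and 61.9 CPM against 87.7, 93.2 and 83.3 (log2 difference 0.42 ± 0.10, adjusted p = 0.0314), and the δ subunit gene of the F1 head, Atp5d, had a log2 difference of 0.36 ± 0.09 (adjusted p = 0.0346). Atp5b, the most abundant nuclear member in TPM, had 956, 873 and 971 CPM in the controls and 1155, 1112 and 1197 in the mutants, which just missed the threshold (log2 difference 0.31 ± 0.09, adjusted p = 0.055). Atp5g3, the main c subunit gene by TPM (870, 911 and 909 in the controls, 719, 728 and 686 in the mutants), had a log2 difference in CPM of 0.26 ± 0.09 (adjusted p = 0.0832).

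**Figure D3:**
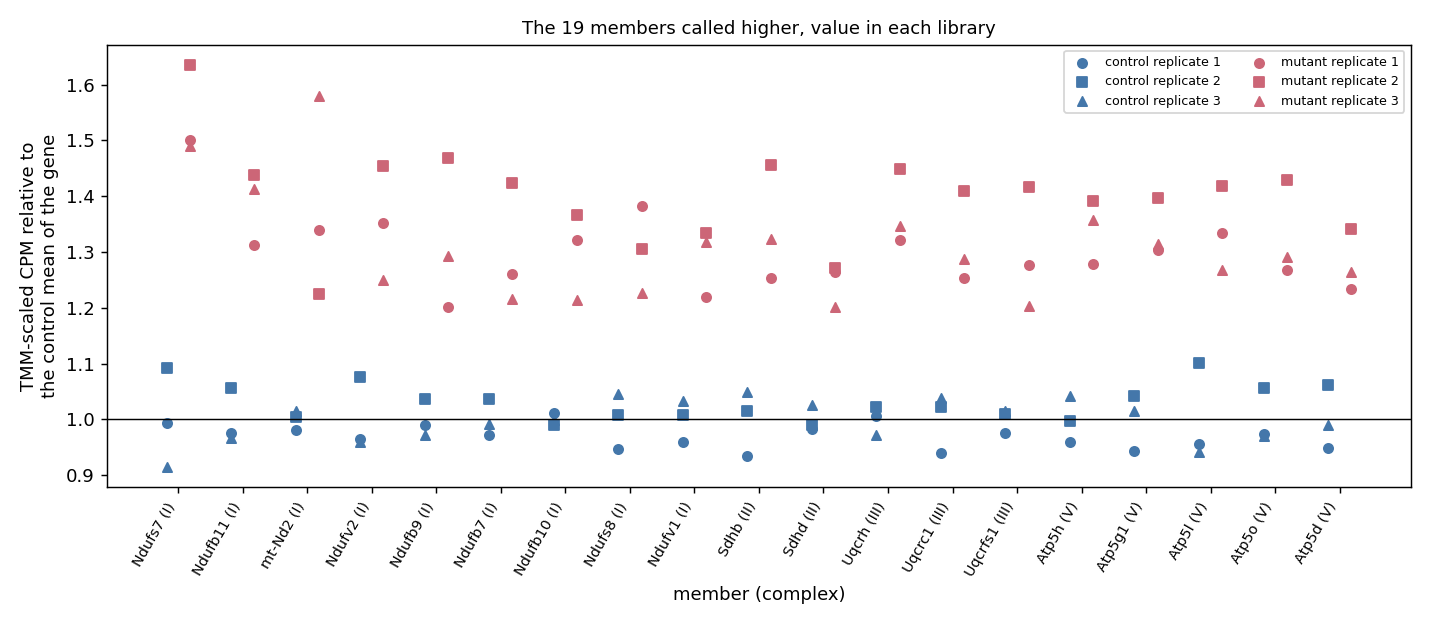
TMM-scaled CPM of the 19 called members in each library, divided by the gene's control mean (y axis), by gene and complex (x axis), with blue for controls, red for mutants and the symbol for the replicate. In all 19 members the 3 mutant points lie above the 3 control points on this scale, whereas in the deposited TPM 16 of the 19 have all mutants below all controls, the exceptions being Ndufs7, Ndufs8 and mt-Nd2, whose groups overlap.

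The mitochondrially encoded members varied far more between the mutant libraries than the nuclear ones did. They are transcribed as long precursors from both strands of the mitochondrial DNA and then cut into single and joined messages. Their summed level was 93676, 100188 and 103161 TPM in the controls and 68056, 62964 and 85626 in the mutants. In CPM on the TMM scale the sums were 47945, 50393 and 51392 against 49404, 48388 and 64965, and these overlapped. Mutant replicate 3 was the highest library for 10 of the 13 genes, and without it their median log2 difference on the TMM scale was 0.01 in place of 0.18. The ratio of mitochondrially encoded to nuclear TPM was 3.71, 3.73 and 3.95 in the controls and 3.39, 3.1 and 4.27 in the mutants, so that the mutants held both the lowest and the highest ratios.

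Of the 13, mt-Nd2 alone was called, 2 had an unadjusted p under 0.05 (mt-Nd2 and mt-Atp6) and DESeq2 called the same 2. The membrane subunit gene mt-Nd2 (chrM:3914-4951) had 3897, 3990 and 4035 CPM in the controls and 5320, 4864 and 6277 in the mutants, a log2 difference of 0.47 ± 0.11 (adjusted p = 0.0321). Its groups did not overlap in CPM, while in TPM the values of 7915, 8109 and 8344 against 7453, 6247 and 8607 did. The other membrane subunits of complex I did not pass. Values for mt-Nd1 were 4077, 3787 and 3484 CPM against 4361, 3707 and 4810, and for mt-Nd4 5523, 6295 and 6601 against 5454, 5219 and 7701. Values for mt-Nd5 were 3153, 3195 and 3890 CPM against 3814, 2948 and 5410. In these 3 genes mutant replicate 2 lay within or below the range of the controls and mutant replicate 3 above it. The short mt-Nd4l, which shares 7 bases with mt-Nd4, had 273, 294 and 327 CPM against 255, 246 and 367. The single member read from the opposite strand, mt-Nd6, had 506, 540 and 627 CPM against 648, 518 and 852. It shares 14 bases with mt-Nd5, and since the strandedness of the libraries is not given in the sources used here, its reads and those antisense to it cannot be told apart.

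For complex III, mt-Cytb, the cytochrome b gene, had 5421, 6242 and 6773 CPM in the controls and 5591, 5459 and 8075 in the mutants. For complex IV, mt-Co1 had 18465, 18667 and 18617 CPM against 16871, 16925 and 23012, a log2 difference of 0.03 ± 0.14. The copper-binding subunit gene mt-Co2 had 1649, 2296 and 2150 CPM against 2035, 2061 and 2098. The third large subunit gene, mt-Co3, had 1909, 1863 and 1762 CPM against 1574, 2521 and 2639. All 4 genes overlapped between groups in CPM and did not pass the test, and 3 of them, all but mt-Co2, had their highest value in mutant replicate 3.

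For complex V, mt-Atp6 and mt-Atp8 lie on 1 message and share 43 bases, so reads in the shared stretch belong to both genes. The end of mt-Atp8 (chrM:7900-7969) and the start of mt-Atp6 (chrM:7927-7996), both on the + strand, are shown from the GENCODE transcripts of mouse release 21, with the shared bases in capitals.
mt-Atp8: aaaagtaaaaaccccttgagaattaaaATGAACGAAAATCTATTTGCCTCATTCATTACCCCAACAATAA
mt-Atp6: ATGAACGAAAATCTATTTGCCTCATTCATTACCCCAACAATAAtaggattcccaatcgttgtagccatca
Although they share a message, their deposited values differed in pattern. The gene mt-Atp6 had 2857, 2938 and 2861 CPM in the controls and 3244, 3581 and 3371 in the mutants, with groups that did not overlap (log2 difference 0.24 ± 0.09, adjusted p = 0.118), whereas mt-Atp8 had 166, 167 and 177 against 154, 153 and 188 (log2 difference -0.04 ± 0.10).

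Several mitochondrially encoded members have near-identical copies in the nuclear genome, and the deposited tables give these copies a large share of the signal. A block on chromosome 1 (mm10) holds pseudogenes of this kind. Gm28661 (chr1:24614885-24615565) matched mt-Co2 over 681 bases at 100% identity, and its mean TPM of 9970 was above the 6118 of mt-Co2 itself. Gm28437 matched mt-Co3 (783 bases, 100%), Gm10925 matched mt-Atp6 (678 bases, 100%) and Gm28438 matched mt-Nd3 (345 bases, 99.71%). Other copies were found too, such as Gm29216 of mt-Co1 (483 bases, 99.793%, mean TPM 1780). All copies found of mitochondrially encoded members held 24% to 28.8% of the TPM of these members and copies together in each library. How the authors' program divided reads between them is not given in the sources used here, so the values of these members alone are uncertain.

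The copy Gm28438 differs from mt-Nd3 at 1 of 345 bases, T3C counted from the first base of mt-Nd3. The first 28 bases are shown from GENCODE, from chrM:9459-9486 (+ strand) and chr1:24613092-24613119 (- strand), with the differing base in capitals.
mt-Nd3: atTaacctgtacactgttatcttcatta
Gm28438: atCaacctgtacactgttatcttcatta
A pair of genes this alike can be told apart only by reads that cover that base or the flanks. On its own, mt-Nd3 had 48, 121 and 87.1 CPM in the controls and 83.9, 186 and 164 in the mutants, a log2 difference of 0.76 ± 0.36 (adjusted p = 0.205). With no filter on low counts the same difference was called (adjusted p = 0.0425). Over the other alternatives without a replicate block its adjusted p ran from 0.0622 to 0.766. The lowest of these, 0.0622, is that of mt-Nd3 summed with its copy, a different quantity. Summed with its copy it had 429, 443 and 445 CPM against 504, 559 and 533, a log2 difference of 0.28 ± 0.08 (adjusted p = 0.0622). The libraries of a group lay much closer together in the sum, and all mutants were above all controls on this scale.

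Summing also moved other members. With its copies, mt-Co3 had 5275, 5559 and 5865 CPM in the controls and 5265, 5169 and 6456 in the mutants, and its log2 difference went from 0.28 to 0.02. The log2 difference of mt-Atp6 went from 0.24 ± 0.09 to 0.04 ± 0.12, with 4979, 5258 and 5711 CPM against 5122, 4912 and 6401, so that its separation of the groups was lost. With all members summed with their copies, a procedure chosen after seeing the data, the median log2 difference of the mitochondrially encoded members was 0.04 in place of 0.18 and that of the nuclear members stayed at 0.22. With this summing mt-Nd2 was still called (log2 difference 0.47 ± 0.11, adjusted p = 0.0315). Without summing, and with each library left out in turn, mt-Nd2 passed in 1 of 6 fits, with a highest adjusted p of 0.0904. Libraries were not left out of the summed counts.

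Some nuclear members also have such copies. Atp5g2, the third c subunit gene, had 2.89, 3.97 and 3.98 CPM in the controls and 7.12, 1.83 and 7.09 in the mutants, with a mean TPM of 11.5, while the identical pseudogene Gm10175 (645 bases, chr7:23946646-23947290) had a mean TPM of 285. Summed, they had 91.3, 88.6 and 79.6 CPM against 114, 113 and 99.1, a log2 difference of 0.33 ± 0.10 (adjusted p = 0.0667), and the groups no longer overlapped. Ndufb4 (mean TPM 33.2) is identical over 390 bases to Ndufb4c (mean TPM 195), a processed pseudogene that is itself a member, and their sum gave a log2 difference of 0.15 ± 0.11. Atp5l, which shares 309 identical bases with Gm10221 (mean TPM 64.1), remained called when summed with its copies (log2 difference 0.34 ± 0.09, adjusted p = 0.0368).

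**Figure D4:**
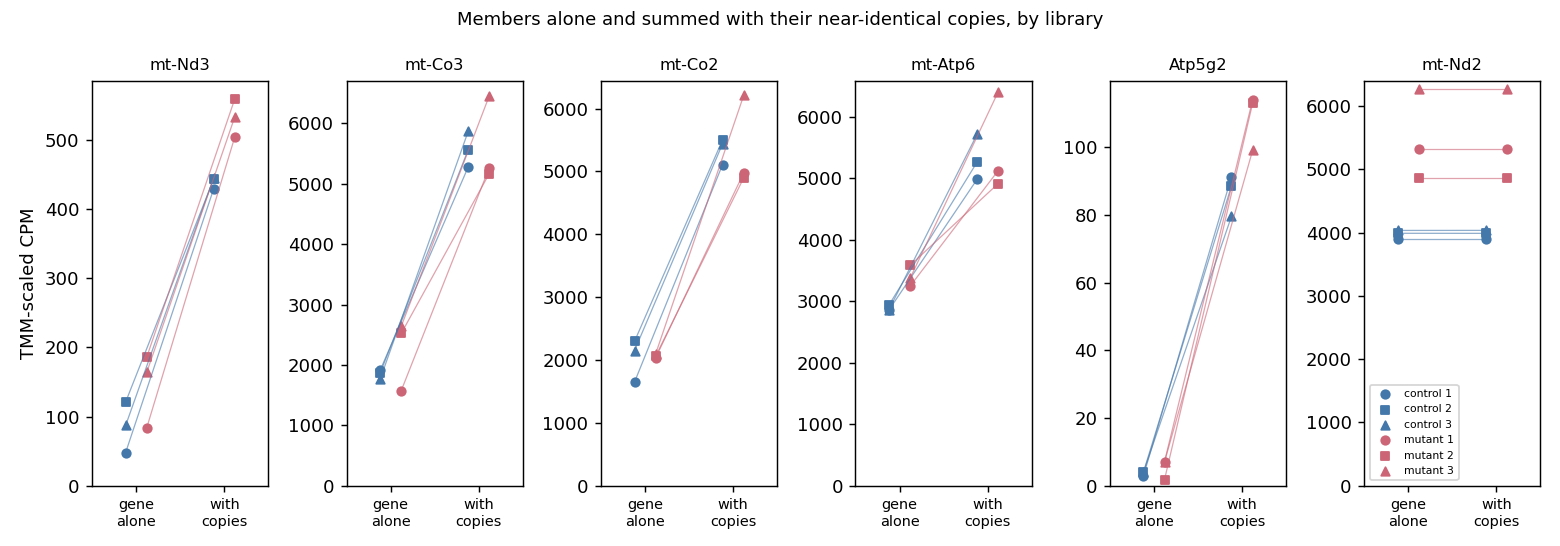
TMM-scaled CPM (y axis, from 0, a scale of its own for each gene) of 6 members in each library, for the gene alone and summed with its near-identical copies (x axis), with blue for controls, red for mutants and the symbol for the replicate. The summed values of mt-Nd3 are 429 to 445 CPM in the controls and 504 to 559 in the mutants, while mt-Nd2 is the same in both columns.

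Other genes of the pathway were read from lists of named genes. Of 6 tested subunits and carriers outside the symbol rule, 1 was called higher on the TMM scale, against 6.64% of all tested genes. It was Cyc1, the cytochrome c1 of complex III, with 129, 111 and 144 CPM in the controls and 169, 198 and 176 in the mutants (log2 difference 0.50 ± 0.12, adjusted p = 0.0302). Cycs, the mobile cytochrome c, had a log2 difference of 0.19 ± 0.12. Of 50 tested assembly factors of complexes I to V, 0 were called by edgeR on the TMM scale, against 6.64% higher and 6.82% lower of all tested genes. At an unadjusted p under 0.05, 6 were higher and 0 lower, and DESeq2 called 1 higher, Ecsit, named after its values were seen. By limma on log2(TPM + 1) 0 were higher. Those lower were 6 of 15, 2 of 4, 4 of 6, 15 of 23 and 2 of 3 for complexes I to V, against 63.6% of all tested genes.

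Of 28 tested genes for copying, transcribing and processing mitochondrial DNA and RNA, 3 were called higher on the TMM scale (10.7%, against 6.64% of all genes). With library totals 1 of the 28 was higher and 2 lower, against 2.05% and 31.6% of all tested genes. By limma on log2(TPM + 1) 0 of 27 were higher and 13 lower, against 1.88% and 63.6%. Hsd17b10, a subunit of the mitochondrial enzyme that trims transfer RNAs, had 171, 154 and 174 CPM in the controls and 250, 282 and 266 in the mutants (log2 difference 0.68 ± 0.09, adjusted p = 0.00359). Elac2, which cuts the 3′ ends of those transfer RNAs, and Lrpprc, which stabilizes mitochondrial messages, had log2 differences of 0.38 and 0.32. With library totals these were -0.02 and -0.08. Tfam, which packages and transcribes mitochondrial DNA, had 46.2, 58.7 and 33.1 CPM against 42.6, 39.1 and 43.9 and was not called (adjusted p = 0.691).

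Among 11 tested nuclear regulators of respiratory genes, 1 was higher and 1 lower on the TMM scale. Each is 9.09%, near the 6.64% higher and 6.82% lower of all tested genes. With library totals 0 were higher and 1 lower, and by limma on log2(TPM + 1) 0 of 10 were higher and 4 lower. The shares of all tested genes were 2.05% and 31.6% with library totals, and 1.88% and 63.6% by limma. Ppargc1b, a coactivator of mitochondrial genes, had 4.9, 3.14 and 3.76 CPM in the controls and 9.19, 6.01 and 8.32 in the mutants (log2 difference 1.00 ± 0.24, adjusted p = 0.0329). Nrip1, a corepressor of such genes, had 17, 12.7 and 21.8 CPM against 11, 10.4 and 10.1 (log2 difference -0.71 ± 0.19, adjusted p = 0.0469). In neither gene did the groups overlap. Ppargc1a, the related coactivator, had 9.64, 7.31 and 9.56 CPM against 16.4, 6.94 and 12.5, with groups that overlapped (adjusted p = 0.356).

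Of 21 other mitochondrial proteins 5 were higher on the TMM scale (Tomm40, Phb2, Hspd1, Hspa9 and Slc25a3) and 2 lower (Cs and Slc25a4), which is 23.8% higher and 9.52% lower against 6.64% and 6.82% of all tested genes. With library totals 7 of the 21 (33.3%) were lower, against 31.6% of all tested genes. The import pore gene Tomm40 had 26, 27.5 and 24.5 CPM in the controls and 38, 43.8 and 37.1 in the mutants (log2 difference 0.61 ± 0.11, adjusted p = 0.0117). Phb2, of the inner membrane scaffold, and the chaperone gene Hspd1 had log2 differences of 0.48 and 0.42. Cs, citrate synthase, had 103, 118 and 116 CPM against 80.7, 86.8 and 87, a log2 difference of -0.40 ± 0.09 (adjusted p = 0.0287). Slc25a4, the muscle and heart form of the ADP/ATP carrier, had 5.2, 5.47 and 5.42 CPM against 3.17, 2.29 and 3.45 (log2 difference -0.85 ± 0.23, adjusted p = 0.0433). Hspa9, Slc25a3, Cs and Slc25a4 were named after their values were seen.

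Of 11 tested genes that feed electrons to the chain by other routes, 5 were higher on the TMM scale (45.5%, against 6.64% of all tested genes). With library totals 2 of the 11 were higher and 5 lower (45.5%), against 2.05% and 31.6% of all tested genes. Etfb, a subunit of the flavoprotein that takes electrons from fatty acid oxidation, had 180, 199 and 183 CPM in the controls and 328, 332 and 301 in the mutants (log2 difference 0.77 ± 0.09, adjusted p = 0.00167). Prodh, proline dehydrogenase, had 94.1, 87 and 79.1 CPM against 154, 144 and 151 (log2 difference 0.79 ± 0.10, adjusted p = 0.00216), and Suox, sulfite oxidase, a log2 difference of 0.58 ± 0.11. The 2 others, Etfa and Etfdh, named after their values were seen, had log2 differences of 0.37 and 0.31. Of 3 tested uncoupling proteins 1 was lower on the TMM scale, against 6.82% of all tested genes. It was Ucp2, which had 66.7, 76.9 and 60.2 CPM against 32.4, 32 and 39.9 (log2 difference -0.96 ± 0.13, adjusted p = 0.0036).

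Promoters of the nuclear members were searched for motifs of factors known to act on respiratory genes. RefSeq promoter windows (GRCm38.p6, 250 bases before to 50 after the start) were matched for 66 member genes, with 71 windows. All motifs were searched on both strands. The NRF1 motif was in 25.35% of the member windows and in 4.6% of all 32851 windows. The ETS motif CCGGAAG, bound by factors such as GABP, was in 23.94% against 8.86%, the YY1 motif AAGATGGC in 14.08% against 2.75%, and the SP1 motif GGGCGG in 39.44% against 35.66%. The ERR motif TCAAGGTCA was in 2.82% against 0.42%, and the DR1 motif, a direct repeat bound by RXR dimers, in 0 of 71 windows against 0.04%. An absent match says only that these letters are not in the window.

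By gene, the NRF1 motif was in 4 of 17 members called higher on the TMM scale and 13 of 49 others, and the ETS motif in 7 of 17 and 10 of 49. These counts describe the windows, and the difference was not tested. An NRF1 match of each of the 4 called members is shown in 30 bases, 5′ to 3′ on the strand of the gene, with the match in capitals. They lie at chr9:50603909-50603938 (- strand) for Sdhd, chr11:115420041-115420070 (- strand) for Atp5h, chr9:108936668-108936697 (+ strand) for Uqcrc1 and chr16:91931602-91931631 (- strand) for Atp5o.
Sdhd: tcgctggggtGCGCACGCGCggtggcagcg
Atp5h: gaccccgacgGCGCAGGCGCcgcgcccgcc
Uqcrc1: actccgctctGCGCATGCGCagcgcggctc
Atp5o: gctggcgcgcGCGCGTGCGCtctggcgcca
The match of Atp5o is on the opposite strand, and the one shown for Uqcrc1 reads the same on both. Uqcrc1 has a further NRF1 match on the opposite strand, not shown, that starts 5 bases after the annotated start.

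Markers of liver cell types also differed between the groups. On the TMM scale, where 6.64% of all tested genes were called higher and 6.82% lower, 5 of 8 hepatocyte markers were higher. The summed level of that list was 79394 to 91123 CPM in the controls and 93045 to 99399 in the mutants. In TPM it was 72230 to 83912 against 56399 to 64568. Of 8 stellate cell markers 6 were lower, with sums of 230 to 278 CPM against 105 to 144. Of 8 markers of monocyte-derived macrophages 5 were lower (153 to 200 CPM against 83.2 to 87), of 6 markers of resident macrophages 1 (180 to 250 CPM against 79.2 to 162) and of 8 endothelial markers 2 (114 to 205 CPM against 90 to 134). All 3 tested adipocyte markers were lower (96.3 to 105 CPM against 13.3 to 35.7), as were 2 of 3 neutrophil markers (5.22 to 6.06 CPM against 1.52 to 2.22). Of 8 lymphocyte markers and of 5 markers of red blood cell precursors 1 each was higher, and of 5 bile duct markers 1 was higher and 1 lower. With library totals 2 of the 8 hepatocyte markers were higher and 1 lower, against 2.05% and 31.6% of all tested genes. By limma on log2(TPM + 1) 2 of them were higher and 3 lower, against 1.88% and 63.6%. The part of these cell types in the differences of the respiratory chain members was not tested.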

How the data were processed

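Per the labels, poly(A)-enriched libraries were read as 150-base pairs. The submitters' processing notes name build mm10, cutadapt and STAR. Not given in the sources used here are the quantification program, the annotation release and the strandedness. Deposited by the authors were 1 table of estimated counts and 1 of TPM. Each deposited estimated count is the TPM times a gene constant and a library constant (largest relative deviation 5.7e-10 over 10983 genes), not a read number, so it only approximates counting error.

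Estimated counts were rounded and tested with edgeR 4.0.16 (R 4.3.3): filterByExpr, TMM, the quasi-likelihood F-test on group, and Benjamini-Hochberg adjustment over 14286 genes. Errors of log2 differences are SEs from the F statistic. In simulated data for this comparison, over 14286 genes, 59.6% of 99 genes changed 2-fold and 87.1% of 101 changed 4-fold were recovered, and 9 of 156 calls were false, so small changes can be missed. Changes of the size of the called members, 1.25-fold to 1.54-fold, were not simulated. Nor was the difference in TMM scaling between the groups, so the share of false calls need not hold for these data. Alternatives used DESeq2 1.42.0, limma 3.58.1 on log2(TPM + 1) or log2(TPM + 0.1), other scalings and filters, a replicate block, and each library left out. Copies were found with blastn 2.17.0 (GENCODE mouse release 21 transcripts, at least 95% identity over 100 bases). In that release, 99.4% of the gene identifiers were found. No libraries were near-duplicates (chi-square at least 47.7 per gene).

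The members and gene lists were chosen with earlier results of these data known. Named were all mitochondrially encoded members, in each complex the 4 nuclear members with the smallest p and the 2 with the highest mean TPM, isoforms of other tissues, Cox7a2l, and up to 3 called genes of each list. Other called members and Cycs, Tfam and Ppargc1a were named after their values were seen.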

Additional observations from a re-analysis of the deposited data

How the results depend on the processing

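Of the 19 members called higher on the TMM scale, all 19 were called under RLE size factors, the CPM filter, robust quasi-likelihood, TMM without the mitochondrially encoded and Mup genes, DESeq2 and the summing of copies (the last chosen after seeing the data), with 19 to 27 members higher, and 17 members were higher with no filter, 16 of them among the 19 and the other being mt-Nd3 (adjusted p = 0.0425). The count was 0 with library totals, 0 by limma on log2(TPM + 1), 0 on log2(TPM + 0.1) and 0 on log2(TPM + 1) with no filter, and 8, 76, 76 and 63 members were then lower. Leaving out 1 library gave 1 to 10 members higher and 0 lower. Over all genes, 949 were higher and 974 lower with TMM, 293 and 4508 with library totals, 217 and 7362 by limma on log2(TPM + 1), 211 and 7315 on log2(TPM + 0.1), 190 and 6391 with no filter, and DESeq2 called 1346 higher and 1474 lower. Leaving out 1 library gave 426 to 758 genes higher and 430 to 756 lower. The ratio of mutant to control of the summed TPM of nuclear members was 0.773, and 0.891 as a share of estimated counts.

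With the replicate number as a block, 15 members were higher, 14 of them among the 19 and the other being mt-Nd3 (log2 difference 0.78, adjusted p = 0.00773), and 775 genes were higher and 783 lower. The deviations of same-numbered libraries correlated at 0.017, -0.003 and 0.063, control replicate 2 correlated best with mutant replicate 1, and the numbers were not taken to pair the samples.

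Named members changed sign where scaling changed, counting those called by either fit. By limma on log2(TPM + 1), the log2 differences of nuclear members of complex I were -0.41 (Ndufa3), -0.41 (Ndufa4), -0.22 (Ndufb10), -0.12 (Ndufb11), -0.22 (Ndufb7), -0.20 (Ndufb9), -0.21 (Ndufs8), -0.23 (Ndufv1) and -0.16 (Ndufv2). Nuclear members of complex II had -0.17 (Sdhb), -0.51 (Sdhc) and -0.28 (Sdhd). Nuclear members of complex III had -0.47 (Uqcr11), -0.20 (Uqcrc1), -0.37 (Uqcrc2), -0.22 (Uqcrfs1), -0.14 (Uqcrh) and -0.43 (Uqcrq). Nuclear members of complex IV had -0.32 (Cox4i1), -0.37 (Cox5a), -0.47 (Cox6a1), -0.38 (Cox6b1), -0.42 (Cox7a2), -0.42 (Cox7a2l), -0.32 (Cox7b) and -0.48 (Cox8a). Nuclear members of complex V had -0.29 (Atp5b), -0.24 (Atp5d), -0.18 (Atp5g1), -0.33 (Atp5g3), -0.17 (Atp5h), -0.17 (Atp5l) and -0.18 (Atp5o). Mitochondrially encoded members had -0.36 (mt-Atp6), -0.59 (mt-Co1), -0.56 (mt-Co2), -0.56 (mt-Cytb), -0.42 (mt-Nd1) and -0.14 (mt-Nd2). With log2(TPM + 0.1) the same 39 values were equal at 2 decimals except -0.19 (Atp5o), -0.33 (Cox7b) and -0.48 (Uqcr11). With log2(TPM + 1) and no filter 33 of them changed sign with the same values. With library totals the values were -0.04 (Atp5d), -0.02 (Ndufb10), -0.02 (Ndufb7), -0.01 (Ndufs8), -0.03 (Ndufv1), -0.31 (Sdhc), -0.08 (Sdhd), -0.00 (Uqcrc1) and -0.02 (Uqcrfs1). These scales differ in where the typical gene is set, and the cause of the difference was not tested further. The small number of libraries and the rounded estimated counts limit how small a change can be called.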
